A study of Homo sapiens with 75 samples.

Results

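The BCL2 family genes of the mitochondrial apoptosis pathway were followed in 5 human cell lines after ionising radiation. Of 10 genes listed, 9 had at least 1 probe set with a single gene symbol, 30 probe sets in all among the 54675 of the arrays and the 19775 named genes. The pro-apoptotic genes were BBC3, PMAIP1, BID, BCL2L11, BIK, BAX and BAK1, and the anti-apoptotic ones BCL2, BCL2L1 and MCL1. The only probe set of BBC3 was also annotated to the microRNA genes MIR3190 and MIR3191, which lie within BBC3, so no value is given for BBC3. Each other gene is represented by its probe set of highest mean level (75 arrays). The lines, named as labelled, were TK6 (B lymphoblastoid cells), U2OS (osteosarcoma), BJ (skin fibroblasts), G361 (melanoma) and HepG2 (hepatoma). Each line had 5 groups of 3 arrays, namely cells 3 h and 6 h after a dose of 5 Gy and cells that were mock-irradiated, called untreated here, collected at 0 h, 3 h and 6 h. Values are RMA intensities on the log2 scale, so a difference of 1 is a 2-fold change. All 5 are established lines, each represented by itself alone, and the labels do not say whether the replicates were separate cultures. The p-values cover the spread among these arrays and no more, which may be technical in part, and their precision is limited by the 3 arrays of each group.

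BCL2 family proteins decide whether the outer mitochondrial membrane is opened during apoptosis. BAX and BAK1 form the pores through which cytochrome c leaves, and BCL2, BCL2L1 (BCL-XL) and MCL1 hold them in check. The BH3-only proteins, here PMAIP1 (NOXA), BBC3 (PUMA), BID, BCL2L11 (BIM) and BIK, bind and neutralise the protectors or activate the pore formers. BAX, PMAIP1 and BBC3 are textbook transcriptional targets of p53, the factor that DNA breaks activate. Much of the control of the family acts on proteins, through cleavage of BID, relocation of BAX and turnover of MCL1.

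The labels were checked with 18 measured p53 targets outside the family, as the mean per array relative to the 0 h mean of the line. The irradiated arrays stood at 1.20 to 1.53 in TK6, 0.80 to 1.55 in U2OS and 0.61 to 0.77 in BJ, and no untreated array of these lines was above 0.29. G361 and HepG2 went against their labels. The mean was -0.03 to 0.23 in G361 and 0.01 to 0.21 in HepG2 for the arrays with the label irradiated at 3 h, and 0.46 to 0.84 and 1.01 to 1.14 for those with the label irradiated at 6 h. For the label untreated at 6 h it was 0.89, 0.95 and 0.06 in G361 and was at least 0.93 in all 3 HepG2 arrays. For the label untreated at 3 h it was 0.12 to 0.82 in G361 and 0.02 to 0.39 in HepG2. In HepG2 the mean was thus low at 3 h and high at 6 h under both treatment labels. Only 1 of 9 measured hepatocyte markers was highest in the arrays labelled HepG2 and albumin (ALB) was at 2.77 there, while 6 of 6 melanocyte markers were highest in G361, 6 of 6 B lymphoid markers in TK6, and 8 of 8 fibroblast markers in BJ. Neither U2OS nor HepG2 stood out by its own markers, since U2OS was highest for 4 of 9 hepatocyte and 2 of 5 osteoblast markers and HepG2 also for 2 of 5 osteoblast markers. Some of these leads were very small. APOA1 was at 4.27 in U2OS and 4.21 in TK6, and IBSP at 4.2 in both HepG2 and TK6. SERPINA1, by contrast, was at 8.57 in U2OS and at 3.11 to 3.56 in the other lines. In replicate 1 of G361 the GAPDH control fell off from its 3' to its 5' end by more (-0.94 to -0.68) than in any other array of the series (-0.18 to 0.13). The threshold for calling a gene was an adjusted p of 0.05 in limma, and "rose" or "fell" is used only of called genes.

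PMAIP1, BAX and BAK1 were the members that rose after irradiation in TK6, and their promoters are shown because these are the genes on which the comparison with untreated cells turns. Sequences are those of RefSeq (GRCh38.p14), from 250 bases before to 50 after the start of the gene, 300 bases each. They were searched on both strands for the half-site consensus of p53, which 6.63% of 35116 promoters of this length hold, and for CACGTG, an E-box that reads the same on both strands and that 7.26% hold. Both motifs were chosen after the sequences had been seen, and matches are given in capitals. The table had entries for 8 of the 10 genes, and none for BIK and MCL1. The half-site matched in 1 of the 8, BAK1, where it begins 73 bases before the start. CACGTG matched in 3, BBC3, BID (2 of its 5 entries) and BAX. The shares over all promoters count entries, of which a gene can have several. BAX held 4 copies, beginning 138, 93, 45 and 14 bases before the start, a number reached by 5 of all promoters (0.0142%). Neither motif was found in the PMAIP1 window. A match is a run of letters and not a shown site.
PMAIP1 (chr18:59899746-59900045, plus strand): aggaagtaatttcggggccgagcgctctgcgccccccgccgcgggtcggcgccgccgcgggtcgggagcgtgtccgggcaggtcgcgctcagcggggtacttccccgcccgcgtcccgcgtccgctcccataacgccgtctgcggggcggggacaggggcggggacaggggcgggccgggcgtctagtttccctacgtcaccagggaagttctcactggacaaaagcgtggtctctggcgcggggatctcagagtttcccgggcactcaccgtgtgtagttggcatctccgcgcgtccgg
BAX (chr19:48954625-48954924, plus strand): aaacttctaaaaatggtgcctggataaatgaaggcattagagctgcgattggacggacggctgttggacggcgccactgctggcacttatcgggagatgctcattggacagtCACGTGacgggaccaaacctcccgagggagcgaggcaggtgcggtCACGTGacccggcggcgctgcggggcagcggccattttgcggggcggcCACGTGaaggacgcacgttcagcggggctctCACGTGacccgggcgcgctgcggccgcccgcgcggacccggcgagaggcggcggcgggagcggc
BAK1 (chr6:33580227-33580526, minus strand): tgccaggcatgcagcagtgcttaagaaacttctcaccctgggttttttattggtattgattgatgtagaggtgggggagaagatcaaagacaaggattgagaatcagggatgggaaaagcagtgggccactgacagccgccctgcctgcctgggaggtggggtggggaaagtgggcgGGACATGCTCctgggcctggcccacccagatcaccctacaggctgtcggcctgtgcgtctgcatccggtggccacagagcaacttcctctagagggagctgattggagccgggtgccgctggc

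In TK6, irradiation raised PMAIP1 at both times, BAK1 at 3 h and BAX at 6 h, and no member fell. This was 2 of 8 tested members at 3 h, where 3.99% of all 14227 genes were called (1.88% higher), and 2 of 8 at 6 h, where 6.23% were (4.01% higher). The groups did not overlap, with the irradiated arrays higher, for 3 of 8 members at 3 h (8.37% of all genes) and for 4 of 8 at 6 h (13.1%). The median difference of the 8 members was 0.17 at 3 h and 0.22 at 6 h, against 0.01 at each time over all genes. In these cells 17 of 18 p53 targets outside the family rose at each time, with median differences of 1.58 and 1.65, so the 3 members moved by less than the middle of that list. In bulk RNA a change in every cell and a change in the share of cells that express a gene cannot be told apart.

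PMAIP1, whose product binds and helps remove MCL1, was the only member called at both times. At 3 h it stood at 11.40, 11.44 and 11.32 in irradiated TK6 cells, against 10.91, 10.77 and 10.90 in untreated ones. At 6 h it stood at 11.35, 11.19 and 10.93 in irradiated cells and at 10.70, 10.60 and 10.49 in untreated cells. Every irradiated array lay above every untreated array of its time, although irradiated replicate 3 at 6 h (10.93) was close to the level of untreated cells at 0 h (11.0 ± 0.17, SD, n = 3). The difference was 0.53 at 3 h (SE 0.10, adjusted p = 0.00345, 1.44-fold) and 0.56 at 6 h (SE 0.10, adjusted p = 0.00183, 1.47-fold). The rise at 6 h was measured against untreated cells that had themselves fallen. Untreated PMAIP1 was 0.40 lower at 6 h than at 0 h (SE 0.10, adjusted p = 0.0267), and irradiated cells were 0.38 above 0 h at 3 h (adjusted p = 0.0194) and 0.15 above it at 6 h (adjusted p = 0.394). Both calls were lost without replicate 2 of every group (adjusted p = 0.155 and 0.0589) and in 1 fit of all 75 arrays, where the other lines raised the SE to 0.23 (adjusted p = 0.282 and 0.177). They held under the other 15 of 17 alternatives.

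BAX showed the largest difference of any member in any line. At 3 h it stood at 9.53, 8.94 and 8.91 in irradiated TK6 cells and at 8.87, 7.79 and 8.42 in untreated cells. The 6 h values were 9.97, 9.43 and 9.59 in irradiated cells and 8.80, 8.24 and 8.39 in untreated cells. Replicate 1 was the highest array of each of the 4 groups, and at both times all irradiated arrays lay above all untreated ones, by 0.04 at 3 h and by 0.63 at 6 h. The difference was 0.77 at 3 h (SE 0.24, adjusted p = 0.0986), which was not called, and 1.19 at 6 h (SE 0.24, adjusted p = 0.00456), a 2.29-fold rise. In the fit with a replicate block the adjusted p was 5.96e-05 at 3 h and 3.58e-07 at 6 h. At 3 h BAX was also called in 1 fit of all 75 arrays (adjusted p = 0.0254), without replicate 1 (0.00677) and without untreated replicate 1 (1.02, adjusted p = 0.0160). The call at 6 h was lost without replicate 3 of every group (adjusted p = 0.176) and held under the other 16 of 17 alternatives.

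BAK1, the other pore former, moved less. At 3 h it stood at 6.90, 6.82 and 6.82 in irradiated TK6 cells and at 6.49, 5.92 and 6.17 in untreated cells. The irradiated cells were at 7.09, 6.75 and 6.87 at 6 h, and the untreated cells at 6.70, 6.44 and 6.37. The groups did not overlap at either time, but at 6 h irradiated replicate 2 was only 0.05 above untreated replicate 1. The difference was 0.65 at 3 h (SE 0.16, adjusted p = 0.0259, 1.57-fold) and 0.40 at 6 h (SE 0.16, adjusted p = 0.181), or adjusted p = 0.0273 at 6 h with the replicate block. The call at 3 h was lost under 8 of 17 alternatives (highest adjusted p 0.356), namely a fit of the 6 compared arrays alone (0.0837), leaving out replicate 2 or 3 of every group, and leaving out any 1 of the 3 irradiated arrays, untreated replicate 2 or untreated replicate 3 (adjusted p = 0.0756 to 0.117). Over the 15 TK6 arrays BAX and BAK1 followed each other with a Pearson r of 0.93 after the line mean was removed, and over the 60 arrays of the other lines with 0.11. These arrays share their replicate numbers and the treatment, so the value only describes them.

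**Figure D1:**
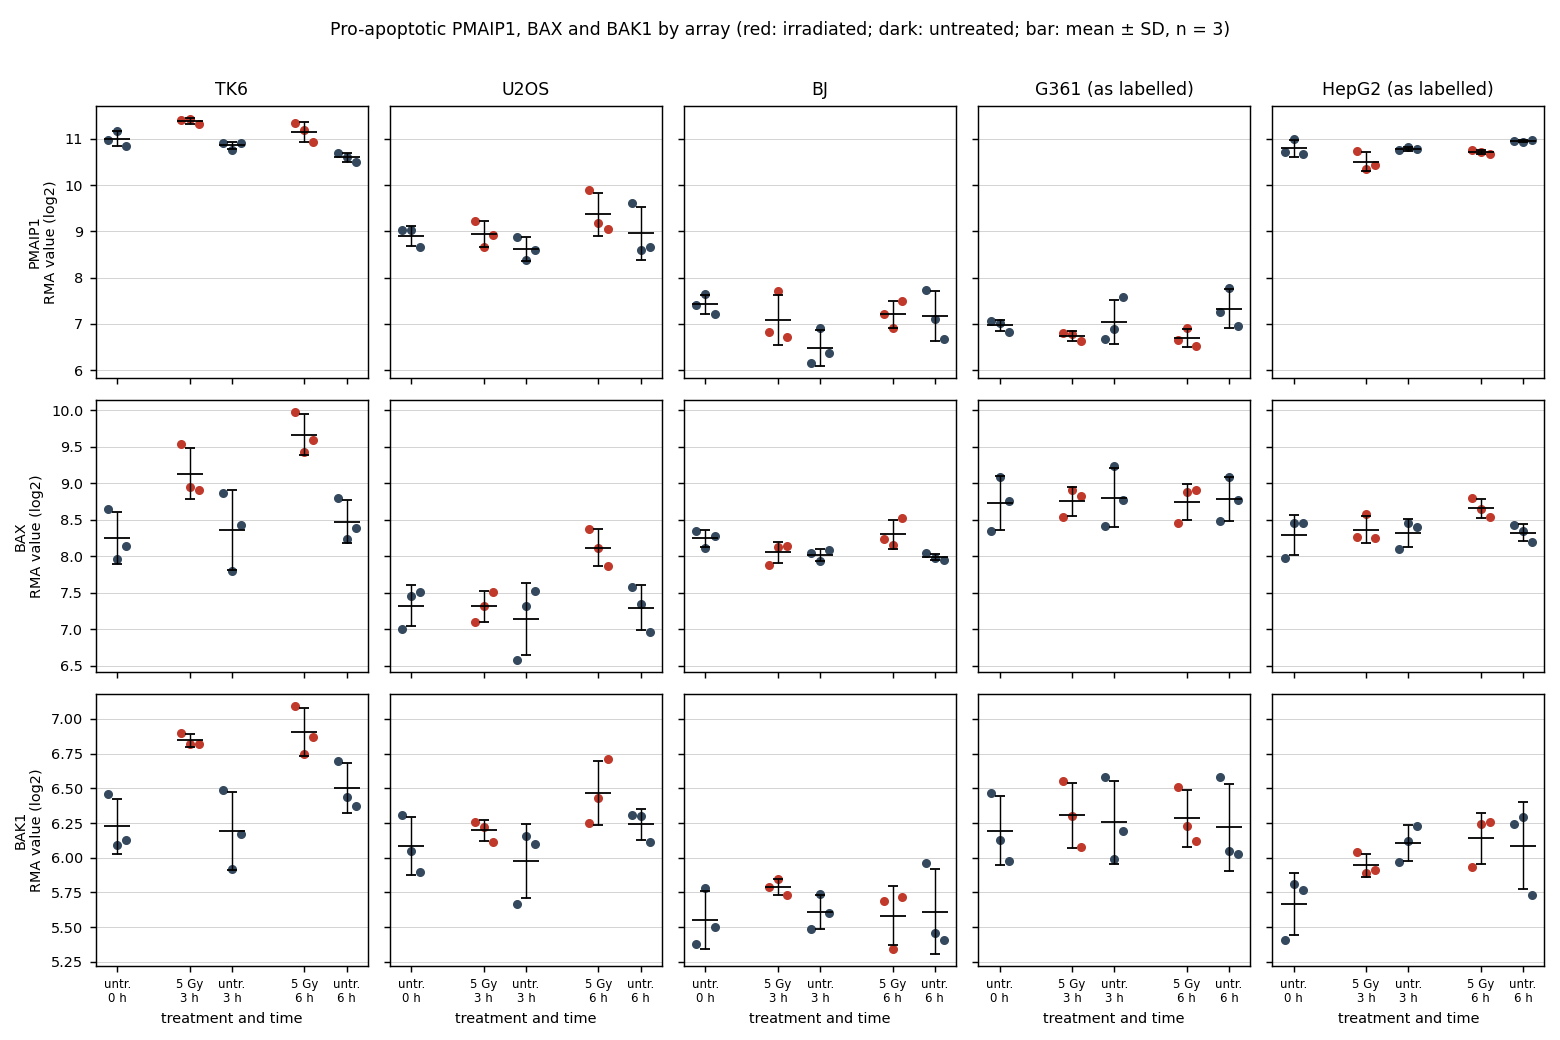
RMA values (log2, vertical axis) of PMAIP1, BAX and BAK1 in each of the 75 arrays, by line, treatment and time (horizontal axis), with irradiated arrays in red and untreated ones dark and bars for the mean ± SD (n = 3). In TK6 the irradiated arrays lie above the untreated ones of the same time for all 3 genes. At 6 h those of BAX do so too in U2OS, in BJ and in the arrays labelled HepG2.

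The remaining BH3-only genes did not pass the test in TK6. BID, which caspase-8 cleaves into its active form, stood at 10.17, 9.88 and 10.06 in irradiated cells at 6 h and at 10.42, 10.05 and 10.23 in untreated cells. Each irradiated array was below the untreated array of its number, and the groups overlapped. The difference was -0.20 (SE 0.11, adjusted p = 0.410), and with the replicate block it was called (adjusted p = 0.0407). BCL2L11 differed by 0.03 at 3 h and -0.02 at 6 h, with confidence intervals of -0.31 to 0.36 and -0.35 to 0.32. The mean of all its probe sets gave -0.30 at 3 h (SE 0.11, adjusted p = 0.220 in limma), also not called. BIK, a BH3-only protein of the endoplasmic reticulum, lay below the level limit for testing in TK6, as it did in BJ and HepG2.

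None of the 3 anti-apoptotic genes was called between irradiated and untreated TK6 cells. BCL2L1 stood at 7.75, 7.72 and 7.60 in irradiated cells at 6 h and at 7.54, 7.16 and 7.27 in untreated cells, groups that did not overlap. Its difference was 0.37 (SE 0.14, adjusted p = 0.162), or adjusted p = 0.0251 with the replicate block, under which 5 members were called at 6 h and 3 at 3 h. BCL2 differed by 0.15 at 3 h (95% confidence interval -0.29 to 0.59) and 0.06 at 6 h (-0.39 to 0.50). MCL1 differed by -0.18 (-0.38 to 0.01) and 0.07 (-0.12 to 0.26).

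MCL1, a short-lived protector of mitochondria, fell with time in TK6 whether or not the cells were irradiated. Irradiated cells stood at 9.87, 9.57 and 9.55 at 3 h and at 9.87, 9.68 and 9.71 at 6 h. Untreated cells stood at 10.24, 10.27 and 10.22 at 0 h, at 9.91, 9.81 and 9.82 at 3 h and at 9.75, 9.61 and 9.69 at 6 h. All 12 later arrays lay below all 3 of 0 h. Against 0 h MCL1 fell by 0.58 in irradiated cells at 3 h (adjusted p = 3.04e-04) and by 0.49 at 6 h (adjusted p = 0.00138), and by 0.40 and 0.56 in untreated cells (adjusted p = 0.0326 and 0.00175). In these 4 comparisons 10.5%, 14.2%, 1.81% and 5.16% of all genes were called. All 4 share the same 3 arrays of 0 h.

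Against 0 h the irradiated TK6 cells had 4 members called higher at 3 h (4.36% of all genes) and 2 at 6 h (7.44%). BAX was 0.88 above 0 h at 3 h (adjusted p = 0.0241) and 1.42 above it at 6 h (2.67-fold, adjusted p = 6.68e-04). BAK1 was 0.62 and 0.68 above it (adjusted p = 0.0181 and 0.00872), and BCL2L1 was 0.54 above it at 3 h (adjusted p = 0.0189) and 0.40 at 6 h (adjusted p = 0.0721). BCL2 was lower than at 0 h in all 4 later groups, by 0.57 and 0.40 in irradiated and by 0.71 and 0.46 in untreated cells, and none of these was called (lowest adjusted p 0.0954). Over all lines 13 of 164 differences from 0 h were called (7.93%), against 1.86% over all genes. That number varied with the replicate left out, at 2 without replicate 2 of every group, 0 without replicate 3 and 15 without replicate 1. Fewer arrays enter these fits, and the cause of the variation was not tested.

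**Figure D2:**
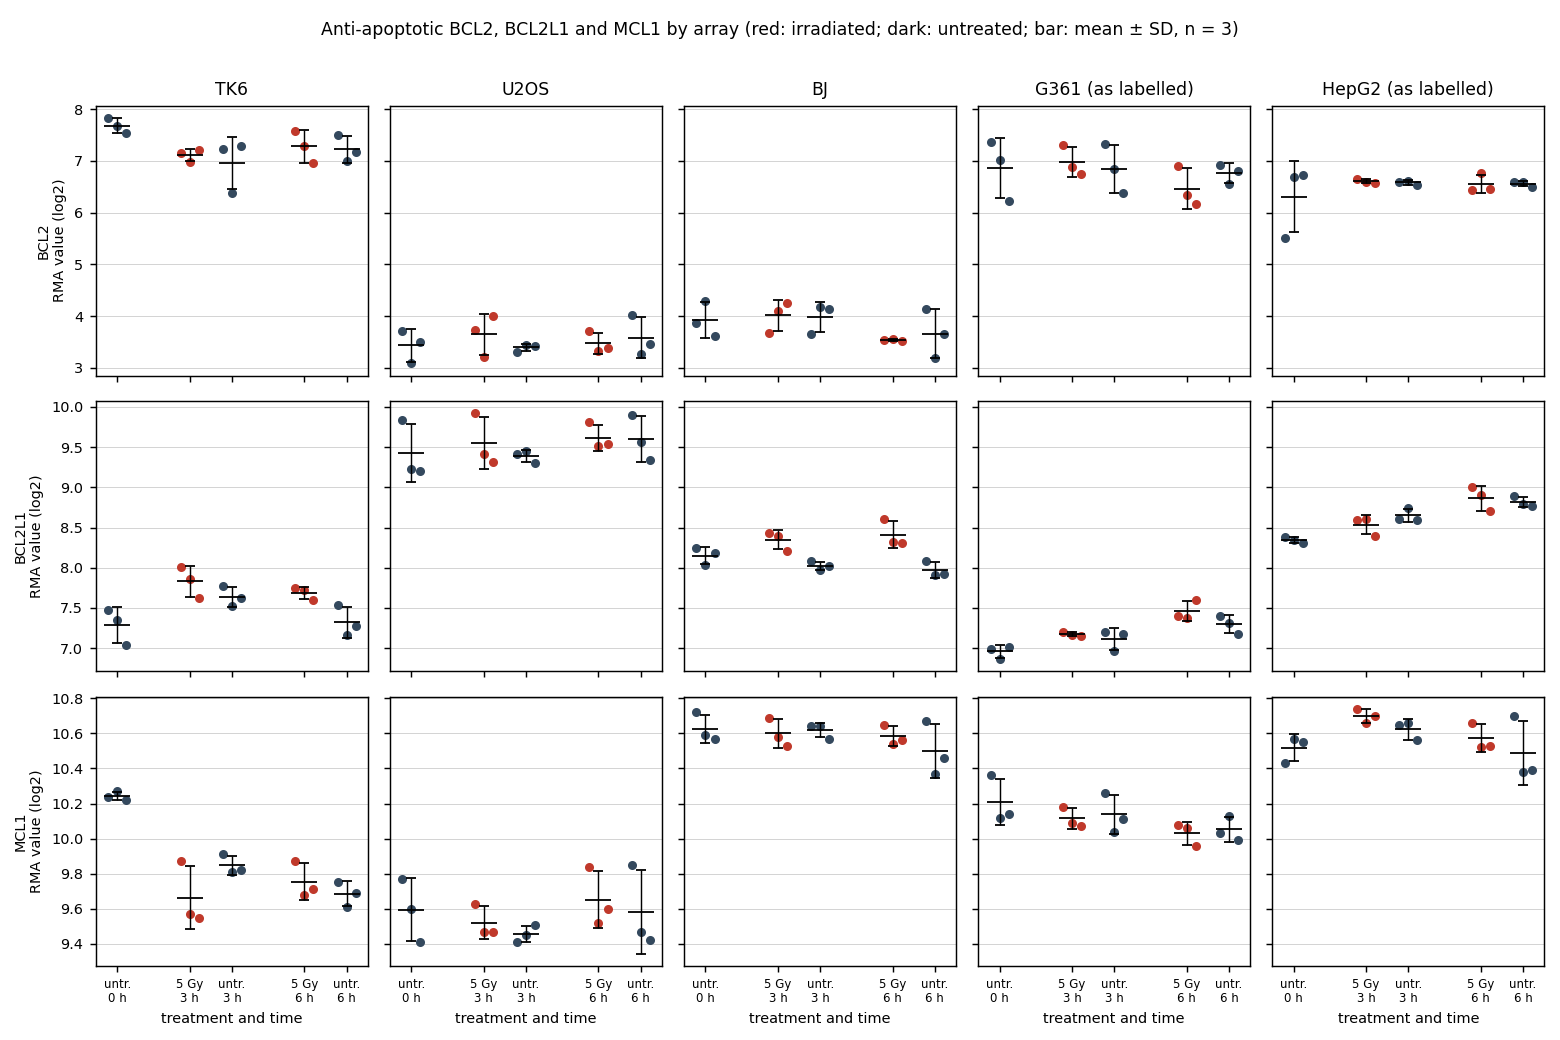
RMA values (log2, vertical axis) of BCL2, BCL2L1 and MCL1 in each of the 75 arrays, by line, treatment and time (horizontal axis), with irradiated arrays in red and untreated ones dark and bars for the mean ± SD (n = 3). MCL1 in TK6 is below its 0 h level in every later group, and BCL2L1 in BJ is higher in irradiated arrays at both times.

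In U2OS no member was called at 3 h or 6 h, where 0.0887% and 0.641% of 14654 genes were. At an unadjusted p under 0.05 in limma there were 0 and 1 of 8 members. No member separated the groups at 3 h (6.8% of all genes did), and BAX alone did at 6 h. It stood at 8.37, 8.11 and 7.87 in irradiated cells and at 7.57, 7.35 and 6.96 in untreated cells. All 3 irradiated arrays were higher, while 5.52% of all genes had irradiated arrays all higher. The difference was 0.82 (SE 0.24, adjusted p = 0.286). It was called in 1 fit of all 75 arrays (adjusted p = 0.0311) and without replicate 1 (0.83, adjusted p = 0.0136), and under none of the other 15 alternatives.

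PMAIP1 in U2OS stood at 9.22, 8.67 and 8.93 in irradiated cells at 3 h and at 8.88, 8.38 and 8.59 in untreated cells. At 6 h it stood at 9.90, 9.17 and 9.05 in irradiated cells, against 9.62, 8.60 and 8.67 in untreated cells. Each irradiated array was above the untreated array of the same number, but replicate 1 was high in both groups and the groups overlapped. The differences were 0.32 and 0.41 (SE 0.26 each, adjusted p = 0.909 and 0.9997). At 6 h the difference was 0.74 without untreated replicate 1 and 0.14 without irradiated replicate 1, and it was called under none of 17 alternatives. BIK, above the limit only in U2OS and G361, differed by 0.33 at 3 h and 0.49 at 6 h in U2OS (SE 0.27 each, and 0.24 to 0.85 at 6 h over 17 alternatives), at levels of 3.65 to 4.78 that were near the limit of 3.52. BCL2 lay below that limit.

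Replicate 1 stood apart in U2OS for BID, and its untreated array at 3 h was also low for BAX and BAK1. In untreated replicate 1 at 3 h BID was at 8.01 (9.21 and 9.16 in replicates 2 and 3), BAX at 6.58 (7.31 and 7.52) and BAK1 at 5.67 (6.16 and 6.10). Over the 5 groups BID was at 8.01 to 8.70 in replicate 1 and at 9.02 to 9.21 in replicates 2 and 3. BAX overlapped, at 6.58 to 8.37 in replicate 1 and at 6.96 to 8.11 in replicates 2 and 3. The median difference of all genes at 3 h was 0.10, and that of the members 0.17. Without untreated replicate 1 at 3 h the BID difference was -0.25, against 0.14 with it, that of BAX -0.10, against 0.18, and that of BCL2L11 0.12, against -0.11. The BAK1 difference was 0.07 without the array and 0.22 with it. None of these was called either way, and the other 4 tested members kept their direction.

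In BJ fibroblasts no member was called, where 0.180% of 14467 genes were at 3 h and 0.235% at 6 h. Unadjusted limma p-values were under 0.05 for 2 of 8 members at each time. BCL2L1, the gene of the protector BCL-XL, separated the groups at both times. It stood at 8.43, 8.40 and 8.21 in irradiated cells at 3 h and at 8.08, 7.97 and 8.02 in untreated cells. At the later time it stood at 8.61, 8.32 and 8.31 in irradiated cells and at 8.09, 7.91 and 7.92 in untreated cells. The irradiated arrays were all higher at each time. The differences were 0.32 (SE 0.10, adjusted p = 0.9999) and 0.44 (SE 0.10, adjusted p = 0.128). Over 17 alternatives they ranged from 0.27 to 0.39 and from 0.34 to 0.55. Groups that do not overlap keep their sign when arrays are left out, so these ranges describe size only.

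BAX in BJ stood at 8.23, 8.15 and 8.52 in irradiated cells at 6 h and at 8.04, 7.97 and 7.95 in untreated cells. These groups did not overlap either, which made 2 of 8 members at 6 h (5.92% of all genes) and, with BCL2L1, 1 of 8 at 3 h (3.60%). The difference of BAX was 0.31 (SE 0.11, adjusted p = 0.621). PMAIP1 stood at 6.82, 7.71 and 6.71 in irradiated cells at 3 h and at 6.16, 6.90 and 6.38 in untreated cells. Each irradiated array was above the untreated array of its number, and the groups overlapped. The difference was 0.60 (SE 0.28, adjusted p = 0.9999) at 3 h and 0.03 at 6 h, where untreated replicate 1, at 7.74, was the highest array of the line.

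**Figure D3:**
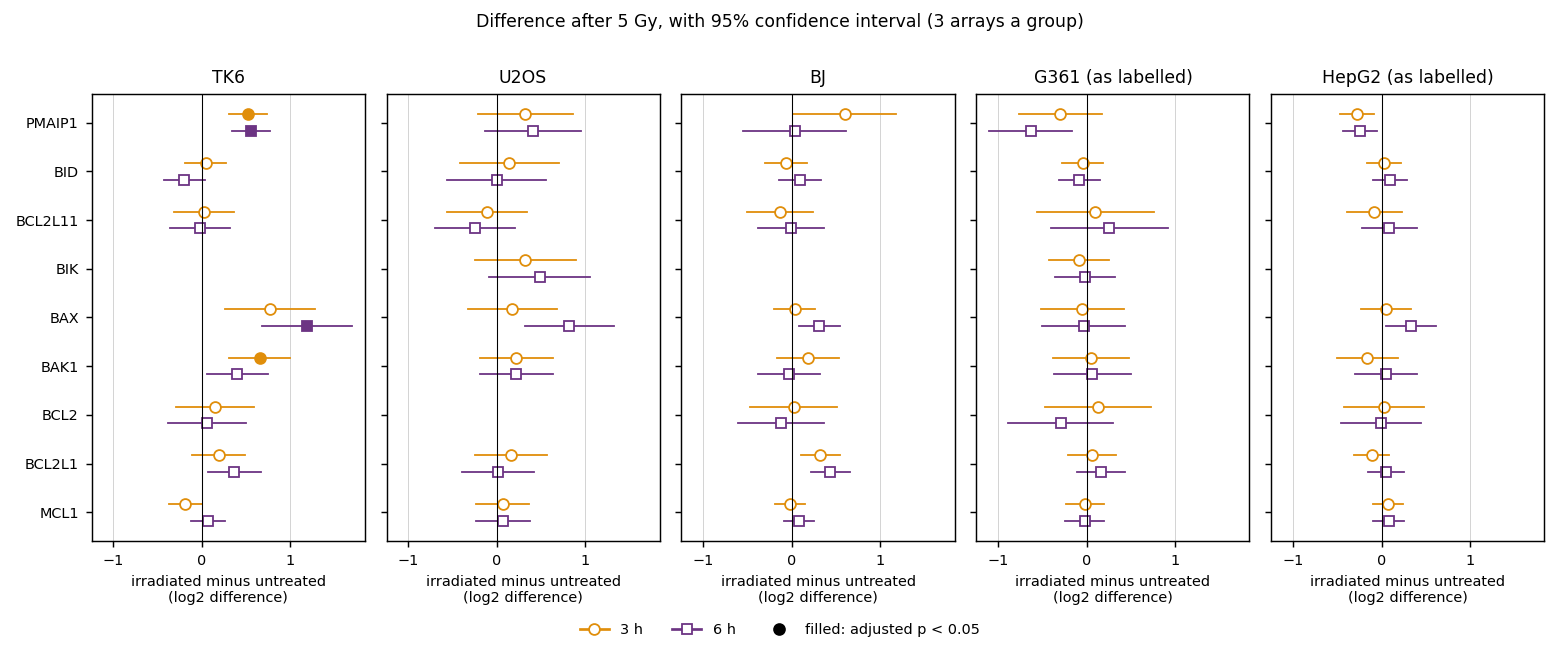
Log2 difference between irradiated and untreated arrays (horizontal axis) for each tested member (vertical axis) in each line at 3 h (circles) and 6 h (squares), with 95% confidence intervals and 3 arrays a group. Filled symbols, adjusted p under 0.05, occur in TK6 for PMAIP1 at both times, BAK1 at 3 h and BAX at 6 h.

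In the arrays labelled G361 no member was called, as was true of 0 of 14487 genes at either time. With limma's unadjusted p under 0.05 there were 0 of 9 members at 3 h and 1 at 6 h, and 0 of 9 separated the groups at 3 h (4.20% of all genes). PMAIP1 at 6 h stood at 6.65, 6.91 and 6.51 in arrays labelled irradiated and at 7.25, 7.78 and 6.95 in arrays labelled untreated. The labelled groups did not overlap, with the irradiated ones lower, as for 2.89% of all genes. The difference was -0.63 (SE 0.22, adjusted p = 0.9999). The 3 highest PMAIP1 values of the line, 7.25 to 7.78, came from untreated replicates 1 and 2 at 6 h and untreated replicate 3 at 3 h (7.57). The same 3 arrays had p53 target means of 0.89, 0.95 and 0.82, while the other untreated arrays at 3 h and 6 h had 0.06 to 0.15. The other 12 arrays had PMAIP1 at 6.51 to 7.06, including the 3 labelled irradiated at 6 h with p53 target means of 0.46 to 0.84. BAX was at 8.34 to 8.53 in replicate 1 of G361 and at 8.75 to 9.23 in replicates 2 and 3, and BAK1 at 6.47 to 6.58 and 5.98 to 6.30. The part of the GAPDH difference of these arrays in this was not tested.

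In the arrays labelled HepG2 no member was called at 3 h or 6 h, and 0 and 1 of 14369 genes were (0% and 0.00696%). Unadjusted limma p-values were under 0.05 for 1 and 2 of 8 members. PMAIP1 at 6 h stood at 10.77, 10.71 and 10.67 in arrays labelled irradiated and at 10.96, 10.94 and 10.98 in arrays labelled untreated. The groups did not overlap, and neither did those at 3 h, with the irradiated arrays lower both times (8.23% of all genes at 3 h). The differences were -0.28 at 3 h and -0.24 at 6 h (SE 0.09 each, adjusted p = 0.768 and 0.598), and at 3 h the difference was called without replicate 1 of every group (-0.41, adjusted p = 0.00274). The difference at 6 h was smaller by the mean of all PMAIP1 probe sets, at -0.08 (SE 0.11, adjusted p = 0.998 in limma). BAX at 6 h stood at 8.79, 8.64 and 8.54 in arrays labelled irradiated and at 8.42, 8.35 and 8.19 in arrays labelled untreated, also without overlap (0.33, SE 0.14, adjusted p = 0.638), so 2 of 8 members separated the groups at 6 h, 1 in each direction, against 14.2% of all genes. Both groups at 6 h had p53 target means above 0.9.

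BCL2L1 was the 1 member called against 0 h in the arrays labelled HepG2. In the arrays labelled irradiated it stood at 9.0, 8.90 and 8.70 at 6 h. In those labelled untreated it stood at 8.38, 8.35 and 8.31 at 0 h, at 8.61, 8.74 and 8.60 at 3 h and at 8.89, 8.79 and 8.77 at 6 h. Both 6 h groups lay above 0 h without overlap. Against 0 h it was 0.52 higher in the irradiated arrays (adjusted p = 0.00611, 1.54% of all genes called) and 0.47 higher in the untreated arrays (adjusted p = 0.0273, 0.640% called).

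The effect of irradiation was not shown to differ between lines for any member. A moderated F test over the 5 lines called 0 of 9 members at 3 h (1.34% of 16027 genes) and 0 at 6 h (1.83%), with 2 members at an unadjusted p under 0.05 at each time. The lowest adjusted p at 6 h were 0.0743 for BAX and 0.110 for PMAIP1, and with the replicate block 2 members were called. These 5 lines include G361 and HepG2, whose arrays went against their labels. In the F test over TK6, U2OS and BJ alone, the adjusted p at 6 h were 0.417 for BAX and 0.9998 for PMAIP1. Among the 3 pairs of TK6, U2OS and BJ, 0 of 27 tests were called at each time, against 0.514% over all genes at 3 h and 0.905% at 6 h, and 1 and 3 of the 27 had an unadjusted p under 0.05. For BAX at 6 h the effect in TK6 exceeded that in BJ by 0.88 (95% confidence interval 0.27 to 1.5, adjusted p = 0.199) and that in U2OS by 0.37 (-0.24 to 0.98, adjusted p = 0.949). An equal size of the effect in these lines was not shown either. The change of the effect between 3 h and 6 h was called by limma for 0 members in each of the 5 lines, against 0.295% of all genes in TK6 and 0% in the others, and 0 of 41 tests had an unadjusted p under 0.05. For BAX the effect at 6 h minus that at 3 h was 0.42 in TK6 (SE 0.34, adjusted p = 0.895), 0.65 in U2OS (SE 0.34) and 0.27 in BJ (SE 0.16), none of them called.

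The levels of untreated cells at 0 h differed between lines for every member. Of 90 tests, 9 members in 10 pairs of lines, 63 were called (70.0%), against 52% over all genes. These fits, like the other tests between lines, kept a gene that was above the limit in at least 1 line, so they include BIK in TK6, BJ and HepG2 and BCL2 in U2OS. Where both lines were above it, 57 of 77 tests were called, against 52.6% over all genes. PMAIP1 was 16.4-fold higher in TK6 than in G361, and BID 6.51-fold higher in TK6 than in BJ. By the other BID probe sets the gap was narrower, with TK6 at 9.57 and 8.9 and BJ at 7.49 and 7.59. These levels rest on the arrays of the 5 lines being on 1 scale, and each is compared only within its gene.

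Among BH3-only genes, PMAIP1 stood at 11.0 ± 0.17 in TK6 and 10.80 ± 0.18 in the arrays labelled HepG2 (SD, n = 3 each), neighbours that did not differ (adjusted p = 0.508). U2OS followed at 8.90 ± 0.21, below HepG2 (adjusted p = 9.0e-11), and then BJ at 7.42 ± 0.21 and G361 at 6.96 ± 0.13, which did not differ from each other (adjusted p = 0.0834). BID was highest in TK6 at 10.17 ± 0.20, then 9.66 ± 0.20 in HepG2, 9.23 ± 0.13 in G361, 8.98 ± 0.24 in U2OS and 7.47 ± 0.07 in BJ, and of these neighbours only G361 and U2OS did not differ (adjusted p = 0.218). The step from TK6 to HepG2 did not hold in the other BID probe sets. In 1 of them HepG2 was higher (9.51 against 8.9 in TK6), and in another they stood at 9.45 and 9.57. BCL2L11 stood at 7.81 ± 0.28 in TK6, above 7.07 ± 0.20 in U2OS (adjusted p = 0.00367), with HepG2 (6.74 ± 0.05) and G361 (6.68 ± 0.49) next and BJ lowest at 5.99 ± 0.34. BIK passed the limit in U2OS (4.17 ± 0.56) and G361 (3.55 ± 0.29) alone.

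Of the pore formers, BAX was lowest in U2OS at 7.32 ± 0.28, below BJ at 8.24 ± 0.12 (adjusted p = 1.98e-04). BJ, TK6 (8.25 ± 0.35), HepG2 (8.29 ± 0.28) and G361 (8.73 ± 0.37) did not differ between neighbours. BAK1 had the narrowest span of the 9 members, 0.67, from 6.23 ± 0.20 in TK6 down to 5.55 ± 0.21 in BJ, and the only step between neighbours that was called lay between U2OS (6.08 ± 0.21) and HepG2 (5.66 ± 0.22, adjusted p = 0.0447).

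The protectors were ordered differently from one another. BCL2 was highest in TK6 at 7.68 ± 0.15, above G361 at 6.87 ± 0.58 (adjusted p = 0.00652) and HepG2 at 6.31 ± 0.68, and stood at 3.92 ± 0.35 in BJ. In U2OS it was under the limit (3.44 ± 0.32), and the step to it from BJ was not called (adjusted p = 0.105). BCL2L1 was highest in U2OS at 9.43 ± 0.36, with HepG2 (8.35 ± 0.04) and BJ (8.15 ± 0.11) next and not apart (adjusted p = 0.241), and TK6 (7.29 ± 0.23) and G361 (6.96 ± 0.08) lowest. By the probe sets used, U2OS had the highest BCL2L1 and the lowest BAX and MCL1 (9.59 ± 0.18) of the 5 lines. Each was apart from its neighbour (MCL1 adjusted p = 2.55e-07). MCL1 was highest in BJ (10.63 ± 0.08) and HepG2 (10.52 ± 0.08), which did not differ (adjusted p = 0.375). Other probe sets did not keep this order of MCL1. In 1 of them BJ was lowest (9.02, with U2OS at 9.25), and in another G361 was lowest (5.71) and TK6 highest (7.1).

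**Figure D4:**
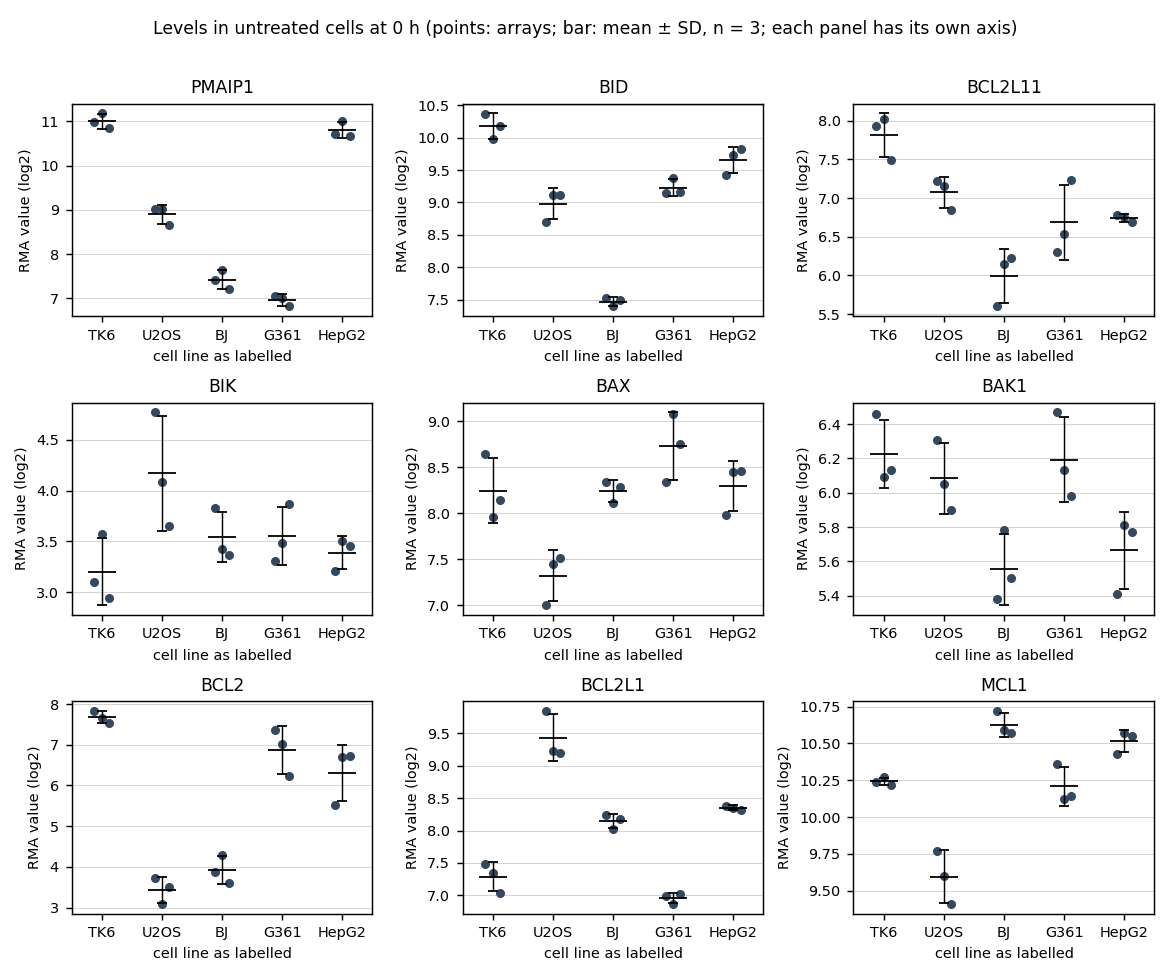
RMA values (log2, vertical axis, a scale of its own in each panel) of the 9 measured members in untreated cells at 0 h by line (horizontal axis), with points for arrays and bars for the mean ± SD (n = 3). PMAIP1 differs by 4.04 log2 units between its highest and lowest lines and BAK1 by 0.67, while BIK in TK6, BJ and HepG2 and BCL2 in U2OS lie below the limit for testing.

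Other probe sets of the same gene gave a check on these values. The second probe set of PMAIP1 rose in TK6 by 0.69 at 3 h and 0.70 at 6 h (adjusted p = 0.00313 and 0.00244, in a fit of all probe sets), and the second of BAX by 0.84 and 1.32 (adjusted p = 0.0405 and 9.50e-04), so by that probe set BAX was called at 3 h too. BAK1 and BIK had 1 probe set each. For BCL2L1 in BJ at 6 h, 2 other probe sets stood at 0.79 and 0.78 and the third at 0.19, none called. Probe sets disagreed most for BCL2L11 and MCL1. At 6 h in TK6 those of BCL2L11 ranged from -0.71 to 0.47 and those of MCL1 from 0.07 to 0.71, with none called. For MCL1 in irradiated TK6 cells against 0 h, the 6 probe sets stood at -0.79 to -0.17 at 3 h and -1.04 to -0.06 at 6 h, called for 2 and 3 of them. At 0 h, 2 further BCL2L11 probe sets stood at 9.04 and 8.59 in TK6 against 4.92 and 4.5 in BJ, a wider gap than that of the probe set used, and 2 further BCL2 probe sets hardly varied between lines (4.84 to 5.34 and 4.16 to 4.33).

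**Figure D5:**
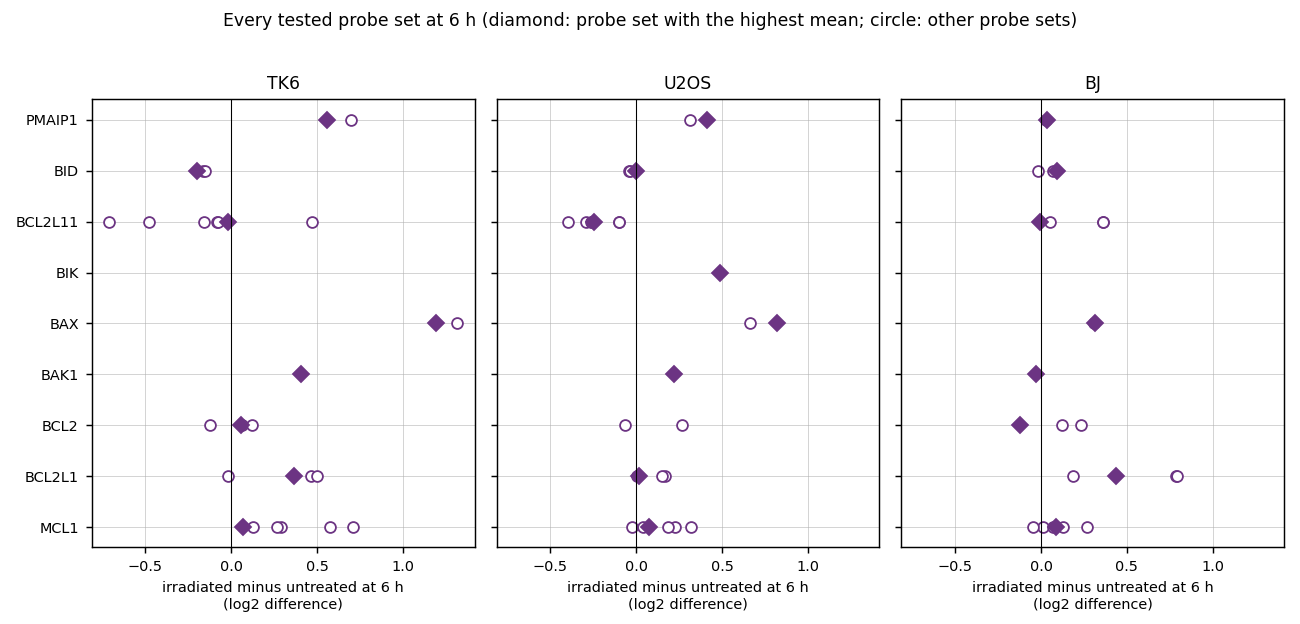
Log2 difference between irradiated and untreated arrays at 6 h (horizontal axis) for every tested probe set of each member (vertical axis) in TK6, U2OS and BJ, with a diamond for the probe set with the highest mean and circles for the others. The 2 BAX probe sets stand at 1.19 and 1.32 in TK6 and at 0.82 and 0.66 in U2OS, while those of BCL2L11 lie on both sides of 0 in TK6.

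Genes around the family were counted from lists. Of 13 further BCL2 family genes, 11 to 13 of which passed the limit, 0 were called by limma in any of the 10 comparisons of irradiated with untreated arrays, and 4 of 118 tests, all in TK6, had an unadjusted p under 0.05. Of 20 genes of caspases, their inhibitors and the apoptosome, 17 were tested in each line, and between irradiated and untreated arrays of the same time calls were made in TK6 alone. APAF1, the scaffold on which released cytochrome c assembles the apoptosome, rose by 1.71 at 3 h and 1.33 at 6 h (adjusted p = 4.34e-05 and 6.72e-04). PIDD1, a p53-induced death domain protein, rose by 1.13 and 1.25 (adjusted p = 8.69e-06 and 3.29e-06). BIRC5, the inhibitor survivin, fell by 0.42 at 6 h (adjusted p = 0.00505), and whether these differ between lines was not tested. The p53 targets outside the family rose in 7 and 13 of 18 cases in U2OS at 3 h and 6 h, in 11 and 9 in BJ and in 0 in G361 and HepG2. They include genes picked for responding to p53, so their direction is no independent evidence.

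The genes most like each member were found by Pearson r over the 75 arrays after the mean of each line was removed, among 12969 genes. For PMAIP1 these were SESN2 (0.63) and BBS4 (0.63), for BAX RFXANK (0.85) and FAM98C (0.84), for BAK1 MAP4K4 and SAC3D1 (0.76 each) and for BCL2L1 CCNG1 (0.69) and TRIM32 (0.68). For BID they were DYRK4 (0.86) and TEX264 (0.84), for BCL2L11 UBBP1 and HBB (0.68 each) and for MCL1 SPRED2 (0.71) and MOB3A (0.70). The arrays share treatments, times and replicate numbers, so these values describe likeness only.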

How the data were processed

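The deposited values of 75 single-sample arrays are log2 intensities, which the submitters' processing notes say were made with RMA. Its version and whether the lines were normalized together are not given in the sources. Probe sets were named through the platform annotation, and 41097 of 54675 had 1 symbol. Genes above the 40th percentile of a line's probe-set means (limits 3.47 to 3.52 log2) were tested with limma 3.58.1 in R 4.3.3, in 1 fit per line with 5 group means (15 arrays, 10 residual degrees of freedom, eBayes with trend), with Benjamini-Hochberg adjustment over all genes tested. Lines were compared in 1 fit of 75 arrays. The script was checked on data simulated for TK6 at 6 h with independent arrays. That check does not cover arrays of the same replicate number that deviate together. All members were named, with at most 4 called genes per list and comparison and the 2 genes most like each member.

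Replicate numbers recur in every group. Arrays of the same number deviated together (lowest correlation over 0.1) in 8 of 10 comparisons, the exceptions being HepG2 at 3 h (0.0961) and BJ at 6 h (-0.0306). The members, lists and tests were chosen with earlier results of these data known.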

Additional observations from a re-analysis of the deposited data

How the results depend on the processing

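Of 1394 recomputed member differences between irradiated and untreated arrays, 1354 kept their side of the threshold within the spread of the arrays, 13 lost and 11 gained a call, and 16 moved without one. No called difference changed sign, while 123 differences that were uncalled both ways did. Leaving out arrays could not change the sign of the differences called in the fit per line, since their groups did not overlap. Several alternatives changed only the spread or the genes tested, and so left the difference itself as it was. The number of members called in TK6 at 3 h, 2, was 1 in a fit of the 6 compared arrays and 0 to 3 when replicates were left out. In TK6 at 6 h, 2 became 1 in a fit of all 75 arrays, 5 with the replicate block and 1 to 2 when replicates were left out. In U2OS at 6 h, 0 became 1 in the fit of all 75 arrays and 0 to 1 without replicates, and in HepG2 at 3 h 0 to 1 without replicates. In BJ at 6 h, where the numbers do not pair the arrays, the replicate block gave 1 (BCL2L1, adjusted p = 0.0231). The 5-line F test at 6 h called 0 members, 1 after quantile normalization, 2 with the replicate block and 0 to 1 without replicates. Calls against 0 h numbered 13, and 0 to 15 without replicates. The replicate block changed no other count of calls by over 1.5 times. Fewer arrays enter the fits without a replicate, and the causes of the other changes were not tested.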

Other observations

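Among the 13 further family genes, calls were made against 0 h in TK6, and those named here were chosen after their values were seen. BNIP3, a mitochondrial protein of the outer membrane induced by low oxygen, fell by 0.95 at 3 h in irradiated cells (adjusted p = 0.00112) and also by 0.95 in untreated cells (adjusted p = 0.00920). At 6 h it fell by 1.26 in irradiated cells (adjusted p = 7.55e-05) and by 1.20 in untreated cells (adjusted p = 6.35e-04). Its relative BNIP3L fell at 6 h by 1.62 in irradiated cells (adjusted p = 8.78e-05) and by 1.40 in untreated cells (adjusted p = 0.00149). Between irradiated and untreated cells BNIP3 differed by -0.01 at 3 h and -0.06 at 6 h and BNIP3L by 0.10 and -0.22, none of them called. BCL2A1, an anti-apoptotic relative of BCL2, was 0.47 above 0 h in irradiated cells at 6 h (adjusted p = 0.00852) and 0.20 above it in untreated cells (adjusted p = 0.397). BCL2L13 was 0.13 below 0 h in irradiated cells at 6 h (adjusted p = 0.601), and in untreated cells it fell by 0.45 (adjusted p = 0.0461). The difference of BCL2A1 between irradiated and untreated cells at 6 h was 0.27 (adjusted p = 0.205) and was not called. All these comparisons share the 3 arrays of 0 h.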
